A study of Mus musculus with 6 samples.

Results

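The genes described here are 8 interferon-induced GTPases of the mouse, taken by symbol from the 24421 gene symbols counted in this series. They are the immunity-related GTPases (IRG) Igtp, Irgm1, Irgm2 and Iigp1 and the guanylate-binding proteins (GBP) Gbp2, Gbp3, Gbp6 and Gbp7. All 8 were present in the files and all 8 passed the filter on low counts.

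RNA was sequenced from cells that had been gated as endothelial by flow cytometry, taken from B16F0 melanoma tumours grown under the skin of C57BL/6 mice. B16F0 is a transplantable melanoma line of that strain. One group received 15C4, an antibody that blocks the secreted glycoprotein LRG1, and the other received IgG as the control antibody, each at 50 mg/kg every 3 days, and tumours grew for 17 days in both. Each group has 3 libraries, called 15C4 1 to 3 and IgG 1 to 3. The labels do not say whether these came from separate animals or pools, nor the age or sex of the mice, so the p-values given here reflect no more than how far these libraries differ, and that spread may be technical.

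Interferons act on receptors whose JAK kinases activate STAT factors, and interferon-gamma in particular induces the IRG and GBP families. Their target genes carry DNA elements called GAS and ISRE, and IRF1 is among the factors that bind ISRE. IRG and GBP proteins assemble on the membranes of vacuoles that hold intracellular parasites and bacteria, and help to break them open. The IRGM subgroup, made up of Irgm1, Irgm2 and Igtp (also called Irgm3), sits on the cell's own membranes and holds effector IRG proteins such as Iigp1 (also called Irga6) in the inactive state. In blood vessels the GBP genes are known as markers of endothelium exposed to inflammatory cytokines.

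The promoters are shown first because they carry a feature the members have in common. RefSeq windows on GRCm38.p6, with 250 bases before and 50 after each transcription start, were matched for 6 of the 8 genes. No window was matched for Iigp1 or Gbp6. Capitals mark the ISRE core, searched as a pair of GAAA units 2 bases apart on either strand (TTTC units on the reverse strand), and the GAS core, searched as TTC, any 3 bases and GAA, which reads alike on both strands. The stretches run 5′ to 3′ along the gene and end at or before the start site. For Irgm1 and Gbp2 a GENCODE exon lies there, so 30 bases around the core are given, and for Gbp3 the stretch stops before the GENCODE exon.
Igtp: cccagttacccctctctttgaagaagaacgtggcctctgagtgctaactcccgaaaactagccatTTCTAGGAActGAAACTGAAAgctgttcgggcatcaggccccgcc
Irgm2: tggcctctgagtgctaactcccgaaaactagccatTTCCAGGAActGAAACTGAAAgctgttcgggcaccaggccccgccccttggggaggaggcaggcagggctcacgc
Irgm1: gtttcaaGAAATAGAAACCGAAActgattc
Gbp7: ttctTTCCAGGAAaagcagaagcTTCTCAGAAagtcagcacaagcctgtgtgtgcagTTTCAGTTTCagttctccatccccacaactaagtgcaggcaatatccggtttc
Gbp3: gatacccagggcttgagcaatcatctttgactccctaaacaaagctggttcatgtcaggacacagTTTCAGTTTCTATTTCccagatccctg
Gbp2: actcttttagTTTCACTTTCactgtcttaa

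On GRCm38.p6 these stretches lie at chr11:58199446-58199555 for Igtp and chr11:58214867-58214976 for Irgm2, both on the plus strand, and at chr11:48871428-48871457 on the minus strand for Irgm1. Those of Gbp7 (chr3:142530226-142530335), Gbp3 (chr3:142559934-142560025) and Gbp2 (chr3:142620594-142620623) are on the plus strand. All 6 matched genes held an ISRE core in a window, against 3.44% of all 32851 RefSeq windows of this length. The core began between 64 bases (Irgm2) and 24 bases (the second of 2 overlapping matches in Irgm1) before the RefSeq start. For Irgm1, Irgm2 and Gbp2 the core lies inside the gene span annotated by GENCODE, which begins farther upstream. Gbp3 also had 2 overlapping matches, and its other RefSeq start had none. The ISRE core read forward in Igtp, Irgm2 and Irgm1 and in reverse in Gbp7, Gbp3 and Gbp2. This does not divide the families, as the core also read in reverse in Gm12250, an IRG relative of the members. A GAS core was found for 3 of the 6 genes, against 8.30% of all windows. In Igtp and Irgm2 it stood 2 bases before the ISRE core, and in Gbp7 there were 2 GAS cores farther upstream. Set against each other without gaps, the Igtp and Irgm2 stretches were identical at 78 of 80 bases. A match describes the letters in the window and does not show that a factor binds there.

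**Figure D1:**
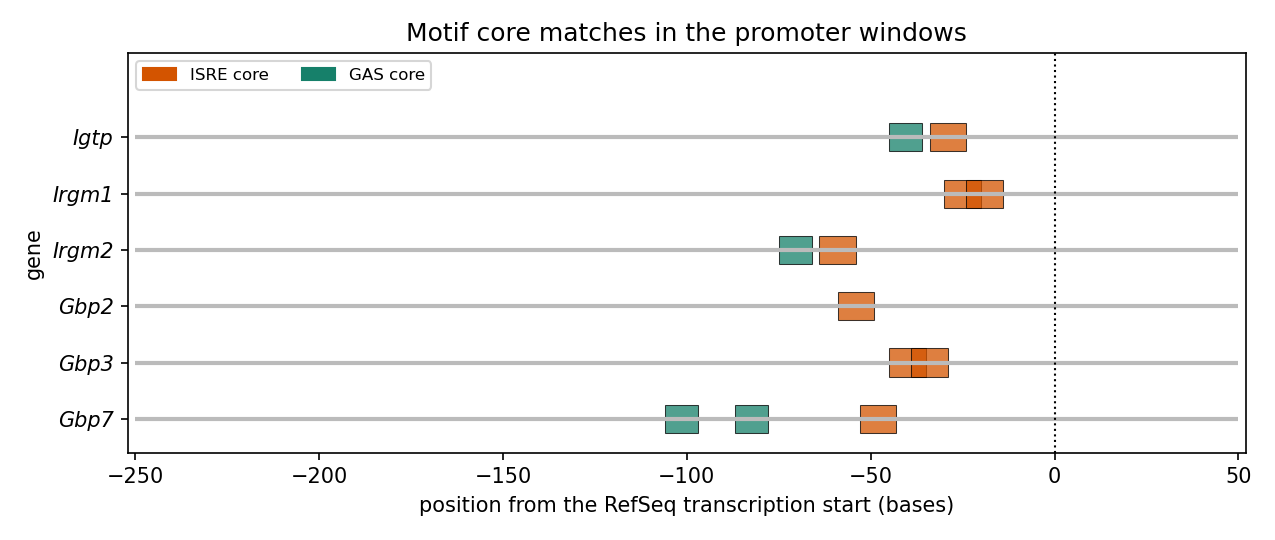
Positions of ISRE cores (orange) and GAS cores (green) in the RefSeq promoter windows of 6 genes, on a horizontal axis of bases from the transcription start, with 1 grey line per window (the first of the 2 windows for Gbp3). Every ISRE core lies within 64 bases before the RefSeq start, and Igtp and Irgm2 share the same pair of neighbouring cores.

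In the genome the members fall into clusters. By GENCODE M21 on GRCm38, Igtp (chromosome 11, 58199556 to 58207591) and Irgm2 (58199618 to 58222782) overlap, as the annotated span of Irgm2 begins within Igtp. They share 162 exonic bases, which is 8.01% of the exonic length of Igtp and 4.39% of that of Irgm2. Irgm1 (48861968 to 48871683, minus strand) is elsewhere on chromosome 11. Gbp7 (142530342 to 142550149), Gbp3 (142560026 to 142573209) and Gbp2 (142620602 to 142638008) lie in a row on chromosome 3, and Gbp6 (105270702 to 105293698, minus strand) is in the cluster on chromosome 5. All 8 members are annotated as protein-coding. Of the 50-base words in Gbp6 transcripts, 70.7% also occur in transcripts of other genes, chiefly the predicted gene Gm43302, so its counts depend on how shared reads were treated and are uncertain. The share was 12.7% for Gbp7, 11.8% for Igtp, 7.83% for Irgm2 and at most 3.75% for the others.

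Library totals ranged from 5175600 to 19572202 counts. Values are given as CPM, a gene's counts scaled to a library total of 1000000. At least 19 of 20 pan-endothelial markers were detected in each library, with sums of 220 to 3260 CPM. Markers of the melanocyte lineage were abundant as well, and the 12 of them summed to between 24060 and 29170 CPM. The IgG 3 library stood apart with the lowest pan-endothelial sum, where Erg had 0 counts. The 15C4 3 library stood apart with 1537 of 11144 tested genes at 0 counts, against 31 to 507 in the others. IgG 2 was set apart by lymphatic endothelial markers and IgG 1 by lymphocyte markers, with the values given beside the results. In such a mixture, fewer cells of a type and less RNA per cell cannot be told apart, nor can GTPase RNA of endothelial cells and of tumour cells.

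The question put to the members was whether their RNA differed between 15C4 and IgG. None of the 8 passed the edgeR test at an adjusted p of 0.05 (adjusted p = 0.9997 for each), where 0% of the 11144 tested genes passed. The fitted fold change was above 0 for 7 of the 8, all but Gbp2, with a median of 0.58 on the log2 scale. Among all tested genes 50.7% were fitted above 0, with a median of 0.01. The members were chosen with earlier results of these data known and share the same libraries, so this comparison is a description only. At an unadjusted p under 0.05 there was 1 member, Igtp, where 2.58% of tested genes were under that value. DESeq2 and limma-voom also called 0 members at an adjusted p of 0.05, where they called 0.233% and 0% of tested genes. Each had 1 member at an unadjusted p under 0.05, where DESeq2 had 455 and limma-voom 461 of the 11144 tested genes.

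Igtp, a regulator of the IRGM subgroup, had the lowest p of the 8. It stood at 601, 534 and 523 CPM in 15C4 1, 2 and 3, and at 207, 462 and 121 CPM in IgG 1, 2 and 3. All 3 libraries of the 15C4 group were above all 3 of the IgG group, and the 15C4 values lay close together while IgG 2 came near them. The means were 553 ± 42.5 and 263 ± 177 CPM (SD, n = 3 each), and the exact permutation test, two-sided, gave p = 0.1, the lowest that 3 libraries against 3 allow. The edgeR log2 fold change was 1.17 with a standard error (SE) of 0.47 and an unadjusted p of 0.0359. The fold change was 1.83 without IgG 2 and between 0.85 and 1.20 with any other library left out, and the adjusted p was at least 0.846 in each of these fits.

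Irgm1, which guards the cell's own lysosomal and mitochondrial membranes, was at 741, 665 and 234.5 CPM with 15C4 treatment and at 204, 455 and 355 CPM under IgG. 15C4 1 and 2 were above every IgG library, but 15C4 3 fell among them. Its means of 547 ± 273 and 338 ± 126 CPM gave a log2 fold change of 0.75 (SE 0.46), which did not pass.

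Irgm2, another IRGM regulator, was at 218, 332 and 21.6 CPM with 15C4 and at 79.6, 204 and 83.8 CPM with IgG. The lowest value was that of 15C4 3, where it rested on 138 counts, and it was 15.4-fold below the highest, in 15C4 2. That was the widest range of any member. The log2 fold change was 0.70 (SE 0.81), and it ran from -0.03 without 15C4 2 to 1.26 without IgG 2. Igtp, which shares exonic bases and promoter sequence with Irgm2, was at 523 CPM in 15C4 3. How reads from the shared bases were treated is not given. This contrast between the neighbouring genes rests on 1 library, in which 1537 of 11144 tested genes had 0 counts. Its cause was not tested.

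Iigp1, the effector IRG protein that the regulators hold inactive, had the highest mean CPM of the members, and the most counts in 3 of the 6 libraries (15C4 1, 15C4 2 and IgG 2). Its values were 1146, 2406 and 263 CPM in 15C4 and 470, 2192 and 284 CPM in IgG. The groups overlapped throughout: 15C4 2 and IgG 2 were both high, and 15C4 3 and IgG 3 were both low. Its means were 1272 ± 1077 and 982 ± 1052 CPM (SD, n = 3 each). The log2 fold change of 0.46 had an SE of 0.88, and leaving out 1 library moved it from -0.43 (without 15C4 2) to 1.82 (without IgG 2).

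Gbp2 was the 1 member fitted lower with 15C4. It was at 337.5, 225 and 83.8 CPM with 15C4 treatment and at 578, 436 and 101 CPM under IgG. IgG 1 and IgG 2 were above every 15C4 library, while IgG 3 lay near the bottom. The log2 fold change was -0.74 (SE 0.65) and did not pass, and it ran from -1.16 without IgG 3 to -0.26 without IgG 1.

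IgG 1, where Gbp2 peaked, was also the library with the most lymphocyte RNA. Markers of T cells and NK cells, 11 of 12 detected, came to 504 CPM there, led by Gzma, a granzyme of cytotoxic cells, at 178 CPM. In the other libraries the sum was between 1.89 and 15.2 CPM, and Cd4 had 0 counts in all 6. Ifng, the gene of interferon-gamma, was at 16.2 CPM in IgG 1 and at most 0.519 CPM elsewhere. The part of these cells in the Gbp2 values was not tested. The other 7 members were not high in IgG 1, where 1 of the 8 members lay above its own mean of log2(CPM + 1).

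Gbp7, which takes part in GBP assembly at bacterial and parasite vacuoles, was at 500, 422 and 262 CPM in 15C4 and at 256, 367 and 145 CPM in IgG. 15C4 1 and 2 were above all IgG libraries, and 15C4 3 was just above IgG 1. Its log2 fold change of 0.70 had an SE of 0.40 and an unadjusted edgeR p of 0.116.

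Gbp3 showed little shift between the group means, with 282, 301 and 220 CPM in 15C4 and 194, 392 and 109 CPM in IgG. The highest and the lowest library were both IgG libraries. The log2 fold change was 0.30 (SE 0.46), and it ran from -0.01 without IgG 3 to 0.89 without IgG 2.

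Gbp6, the member whose reads are shared with near copies, was the steadiest. It was at 63.3, 69.3 and 72.7 CPM in 15C4 and at 57.4, 63.0 and 44.8 CPM in IgG, a range of 1.62-fold. The groups did not overlap, although 15C4 1 exceeded IgG 2 only narrowly (two-sided exact permutation p = 0.1, n = 3 each). The log2 fold change was 0.42 (SE 0.43). Igtp and Gbp6 were thus the 2 of 8 members whose groups did not overlap, both higher in 15C4, where 2.88% of tested genes were separated in that direction and 9.52% in either.

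**Figure D2:**
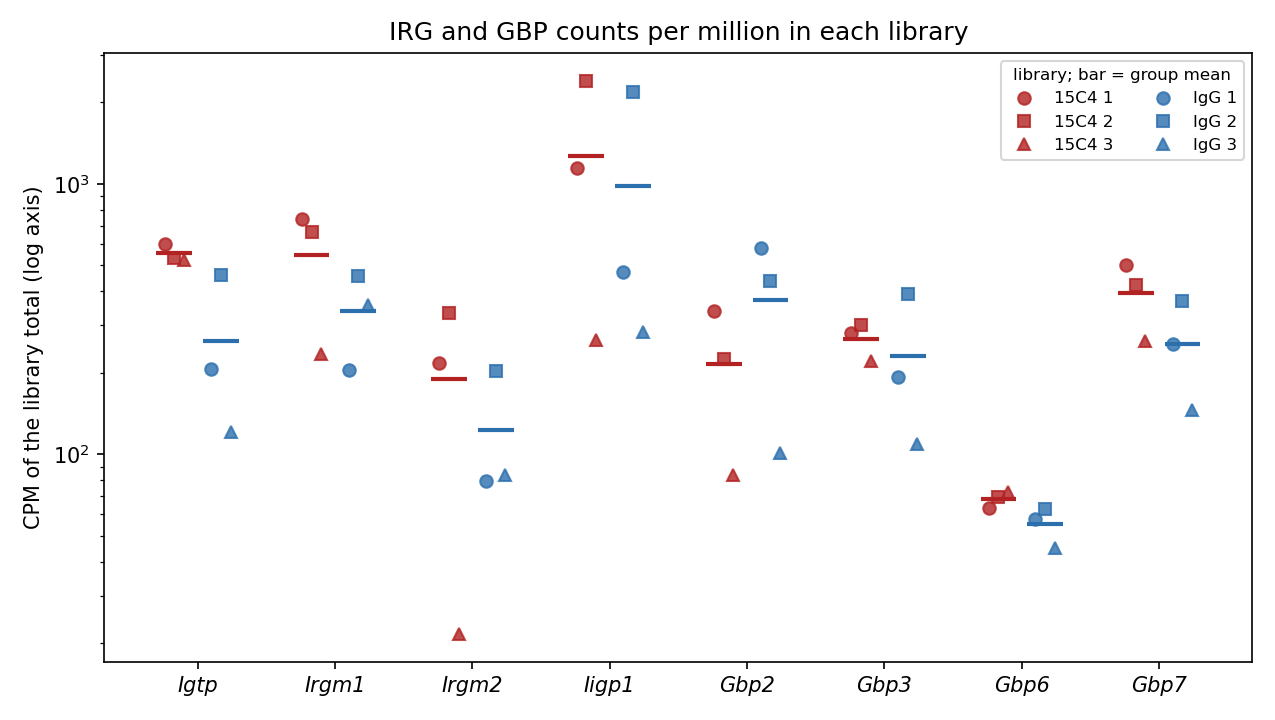
CPM of the 8 genes, on a log axis, with 1 point per library (red, 15C4; blue, IgG; the shape gives the library number) and a bar at each group mean of 3 libraries. The groups are apart for Igtp and Gbp6, and for Iigp1 the libraries 15C4 2 (2406 CPM) and IgG 2 (2192 CPM) are highest, followed by 15C4 1 (1146 CPM).

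**Figure D3:**
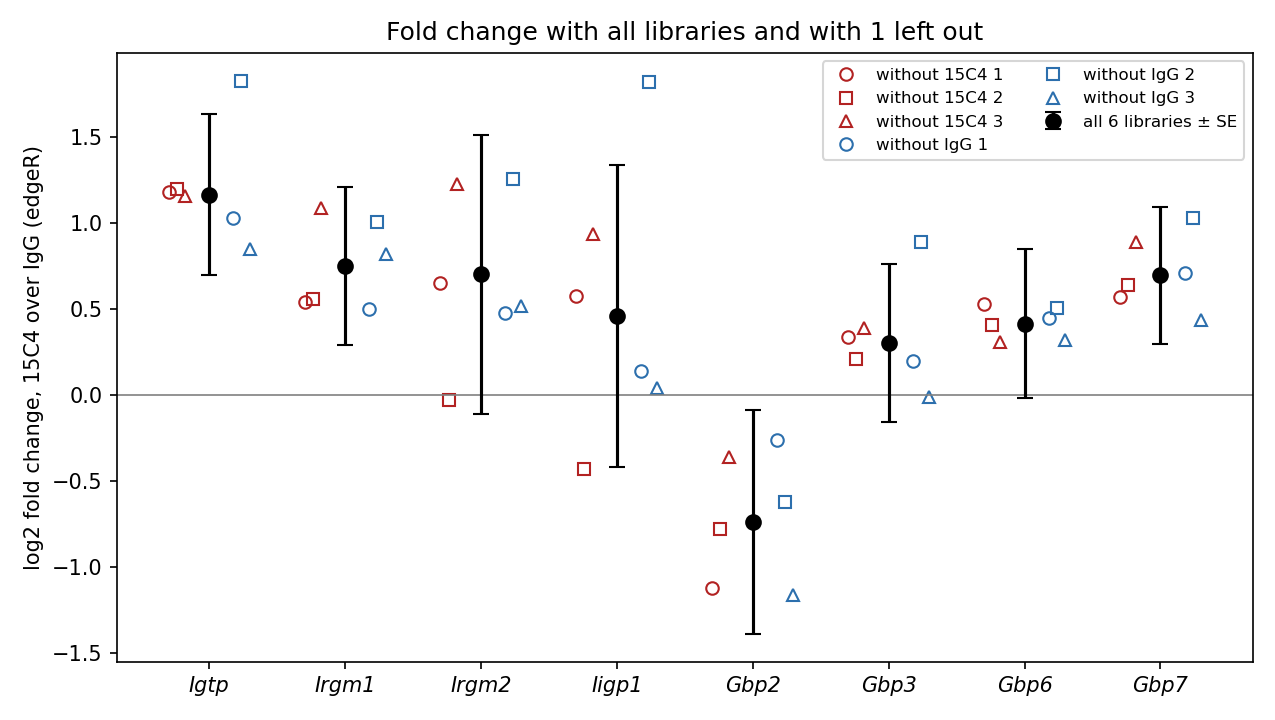
The edgeR log2 fold change of 15C4 over IgG for each gene with all 6 libraries (black, ± SE) and with 1 library left out (open symbols). Igtp stays between 0.85 and 1.83, Gbp2 stays below 0, and Irgm2, Iigp1 and Gbp3 each have 1 point below 0.

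Levels of different genes were compared per kilobase of exonic length. Over the 6 libraries, Igtp had the highest mean at 202 ± 96.9 CPM per kb, followed by Iigp1 at 194 ± 166 (SD, n = 6). Gbp2 came next at 117 ± 77.2 CPM per kb, then Gbp3 at 76.4 ± 29.9 and Irgm1 at 76.2 ± 38.2. Gbp7 stood at 58.0 ± 22.9 CPM per kb, Irgm2 at 42.4 ± 31.2 and Gbp6 at 10.4 ± 1.66. Down to Irgm2, each gene differed from the next by less than the larger SD of the pair. The step from Irgm2 to Gbp6 was larger than either SD, but in 15C4 3 Irgm2, at 5.85 CPM per kb, was below Gbp6. The leading gene per kilobase was Igtp in 15C4 1 and 15C4 3, Iigp1 in 15C4 2 and IgG 2, Gbp2 in IgG 1 and Irgm1 in IgG 3. The exonic lengths are unions over GENCODE transcripts, some of which these cells may not use.

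The make-up of the family's RNA also differed between libraries. Iigp1 made up 48.6% of the summed CPM of the 8 members in 15C4 2 and 48.0% in IgG 2, but 15.7% in 15C4 3. In 15C4 3 the leading share was that of Igtp, at 31.1%, against 9.71% to 15.5% in the other 5 libraries. Gbp2 made up 28.2% in IgG 1 and between 4.54% and 9.54% elsewhere, and Irgm1 made up 28.6% in IgG 3. These shares do not depend on library scaling.

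Within each treatment the members' levels differed widely between libraries. The summed CPM of the 8 members was 3889, 4953 and 1681 after 15C4 and 2046, 4570 and 1244 after IgG. On average over the members, log2(CPM + 1) lay 0.59, 0.69 and 0.61 above each gene's mean in 15C4 1, 15C4 2 and IgG 2. It lay at -0.70 in 15C4 3, -0.28 in IgG 1 and -0.92 in IgG 3. All 8 members were above their own mean in 15C4 1 and in IgG 2, 7 in 15C4 2 and 0 in IgG 3. Without both 15C4 3 and IgG 3, the members' median log2 fold change was 0.56 and 0 passed. With 1 library left out, that median lay at 0.31 without 15C4 2 and 0.38 without IgG 3, and at 0.92 without 15C4 3 and 1.02 without IgG 2.

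The sum of nuclear-retained RNAs was higher in the 3 libraries with high members than in the others. Its part in the members' levels was not tested. These RNAs, of which Malat1 made up the most, summed to 33050, 29790 and 38140 CPM in 15C4 1, 15C4 2 and IgG 2. They summed to 12520, 20700 and 22060 CPM in 15C4 3, IgG 1 and IgG 3. Kcnq1ot1 did not divide this way, at 169, 190 and 221 CPM in the former and 349, 253.5 and 128 CPM in the latter. Nor did Xist, at 90.2, 248 and 168 CPM in the former and 237, 138 and 12.1 CPM in the latter. Pan-endothelial markers summed to 1537, 3260 and 2719 CPM in 15C4 1, 15C4 2 and IgG 2. They summed to 1589, 1922 and 220 CPM in 15C4 3, IgG 1 and IgG 3. Both these markers and the members were highest in 15C4 2 and lowest in IgG 3, but the marker sum of 15C4 1 was below those of 15C4 3 and IgG 1. The part of endothelial content in the members' levels was not tested. Lymphatic endothelial markers reached 1168 CPM in IgG 2, with 6 of 7 detected, and at most 63.8 CPM elsewhere, where Reln had 0 counts. In 15C4 1 and 15C4 2, where the members were at 0.59 and 0.69 against 0.61 in IgG 2, lymphatic markers summed to 31.4 and 40.6 CPM and Lyve1 had 0 counts. The part of lymphatic content in the members' levels was not tested. The summed macrophage and monocyte markers reached 206 CPM in IgG 1 and 76.4 CPM in 15C4 2, and elsewhere lay from 0.469 to 29.6 CPM.

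**Figure D4:**
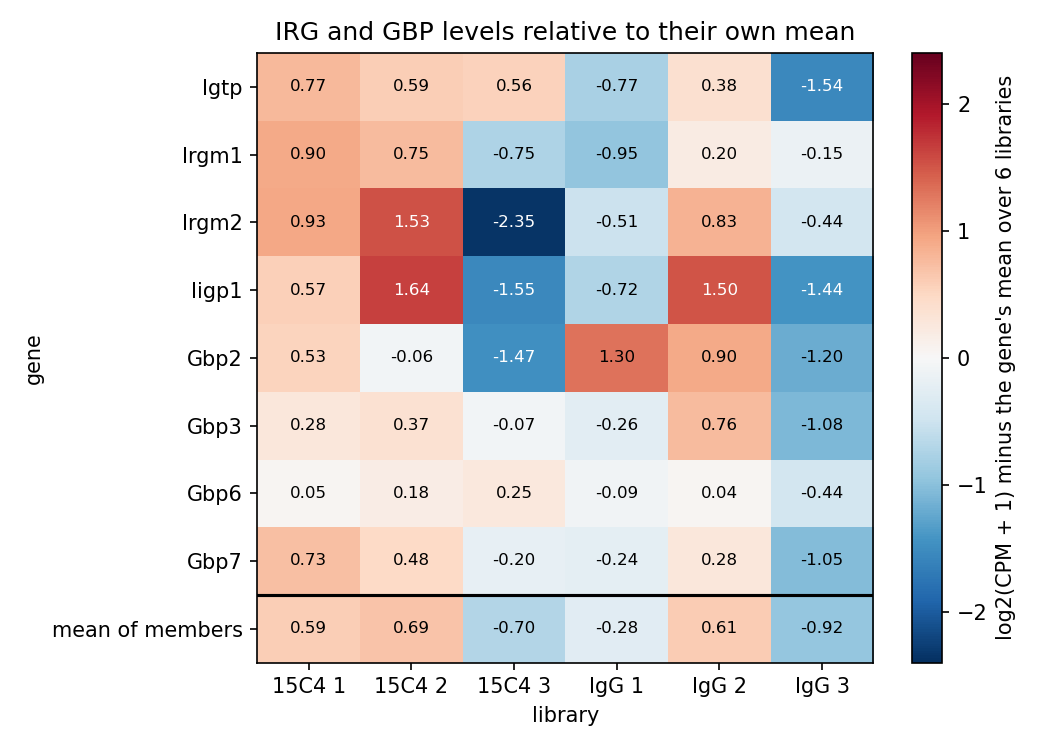
For each of the 8 genes and their mean (rows), log2(CPM + 1) in each library (columns) minus the gene's mean over 6 libraries, with blue below and red above that mean. 15C4 1, 15C4 2 and IgG 2 are above the mean (0.59, 0.69 and 0.61 in the bottom row), and Gbp2 departs from the other genes in IgG 1, at 1.30.

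The other genes of the IRG and GBP families, with giant GTPases, were measured for 19 symbols, of which 12 were tested. Of these 12, 9 were fitted above 0 and 3 below, 0 passed the test, and the median log2 fold change was 0.90, beside 0.01 for all tested genes. Tgtp2, an effector IRG gene, averaged 168 ± 123 CPM under 15C4 against 79.4 ± 37.8 CPM under IgG, a log2 fold change of 1.18 (SE 0.61). Its near copy Tgtp1 was at 82.0 ± 81.4 and 30.6 ± 26.6 CPM, and 79.4% of the 50-base words of Tgtp1 transcripts occur in Tgtp2, so the split between them is uncertain. Gbp5, which supports inflammasome assembly, was at 10.5, 15.9 and 11.7 CPM in 15C4 and at 6.96, 9.75 and 0.514 CPM in IgG. Its groups did not overlap (log2 fold change 1.26, SE 1.18), and its IgG 3 value rested on 6 counts. This gene was the 1 of 12 tested relatives without overlap, where 9.52% of all tested genes did not overlap in either direction.

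Some of these relatives were almost missing from a library in which others were plentiful. Gbp4 was at 737 and 320 CPM in 15C4 1 and 15C4 2 and at 472, 772 and 106.5 CPM in the IgG libraries, but had 1 count in 15C4 3. Of the 12 tested relatives, 6 had at most 1 count in 15C4 3 and 2 did in IgG 3, against 0 in each other library. Among all 11144 tested genes, 1537 had 0 counts in 15C4 3 and 347 in IgG 3, and the number at 1 count or fewer was not taken. Gbp10, low in both libraries, shares 84.1% of its 50-base words with other genes, so its counts are uncertain. F830016B08Rik, an IRG-related gene, was at 322, 327 and 1.56 CPM in 15C4 and at 55.8, 203 and 37.4 CPM in IgG, and Gm4951, related to Iigp1, at 258, 165 and 43.3 and at 51.4, 196 and 51.5 CPM.

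Upstream of the GTPases, interferon genes had few counts or none. Of 11 ligand and inducing cytokine genes, 7 had 0 counts in every library, among them Ifna1, Ifna2 and Ifna4, and Il18 alone was tested (log2 fold change 0.17, SE 0.72). Ifng had 84 counts in IgG 1, 5 in IgG 2, 3 in 15C4 1 and 0 elsewhere, and Ifnb1 had 31 counts in 15C4 2 and 0 elsewhere. All 17 receptor and JAK-STAT genes were tested, 13 were fitted above 0 and 4 below, with a median of 0.12, and 0 passed. Jak1, a kinase of interferon receptors, averaged 258 ± 119 CPM under 15C4 against 343 ± 46.4 CPM under IgG, and Stat2, a STAT factor of type I interferon signalling, at 134 ± 63.3 and 75.9 ± 53.3 CPM (SD, n = 3 each). Ptpn2, a phosphatase that acts on JAK-STAT signalling, was at 215 ± 85.3 and 161 ± 55.0 CPM. Pias1, an inhibitor of STAT factors, was at 15.8 ± 14.8 and 37.7 ± 9.97 CPM, with 1 count in 15C4 3. Irf1 was outside the rule for naming and is given because its product binds ISRE: it was at 340, 121 and 6.57 CPM in 15C4 and at 99.5, 142 and 73.8 CPM in IgG. As for Irgm2, its lowest library was 15C4 3.

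Targets of interferon-gamma other than GTPases were divided in direction. Of 20 tested, 9 were fitted above 0 and 11 below, with a median log2 fold change of -0.06, and 0 passed. B2m, the light chain of MHC class I, was at 6791 ± 1976 and 7506 ± 602.5 CPM, and Cxcl10, a chemokine for T cells, at 701 ± 634 and 557 ± 523 CPM. Of the genes that load peptides on MHC class I, Tapbp had a log2 fold change of 0.84 (SE 0.53) and Tap2 of 1.01 (SE 0.81), and the proteasome activator Psme1 had 0.21 (SE 0.30). Casp1, the inflammasome caspase, was at 3.31 ± 5.10 and 18.1 ± 14.8 CPM (log2 fold change -2.30, SE 1.53). Those means rest on 1, 180 and 4 counts in 15C4 and 41, 338 and 133 counts in IgG. Targets typical of type I interferon had 24 of 29 tested genes fitted above 0, a median of 0.41 and 0 passing. Ifih1, a sensor of viral RNA, was at 156, 208 and 165 CPM in 15C4 and at 61.6, 63.9 and 54.1 CPM in IgG, with an edgeR adjusted p of 0.9997 and a DESeq2 adjusted p of 0.0112. Rtp4 was at 352 ± 93.4 and 225 ± 67.9 CPM, and Rsad2, which encodes viperin, at 512.5 ± 218 and 712 ± 777.5 CPM. Ifitm3, which blocks virus entry and had the highest mean of the list, was at 1061 ± 153 and 1348 ± 221 CPM (log2 fold change -0.27, SE 0.27). Xaf1 was at 242 ± 74.4 and 167.5 ± 45.6 CPM, and Trim30a at 423 ± 240 and 329 ± 53.1 CPM. The difference between these lists was not tested.

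Genes whose products work with IRG and GBP proteins, namely genes of autophagy and ubiquitin signalling and genes of inflammasomes and pyroptosis, showed 7 of 18 tested genes above 0, a median of -0.07 and 0 passing. Sqstm1, an autophagy receptor, was at 546 ± 129 and 629 ± 85.0 CPM, and Gabarapl2, an ATG8 protein, at 113 ± 23.4 and 73.5 ± 27.1 CPM (SD, n = 3 each). The ATG8 protein gene Gabarap had a log2 fold change of 0.47 (SE 0.36), and the conjugation genes Atg5 and Atg3 had 1.06 (SE 0.79) and -0.03 (SE 0.44).

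**Figure D5:**
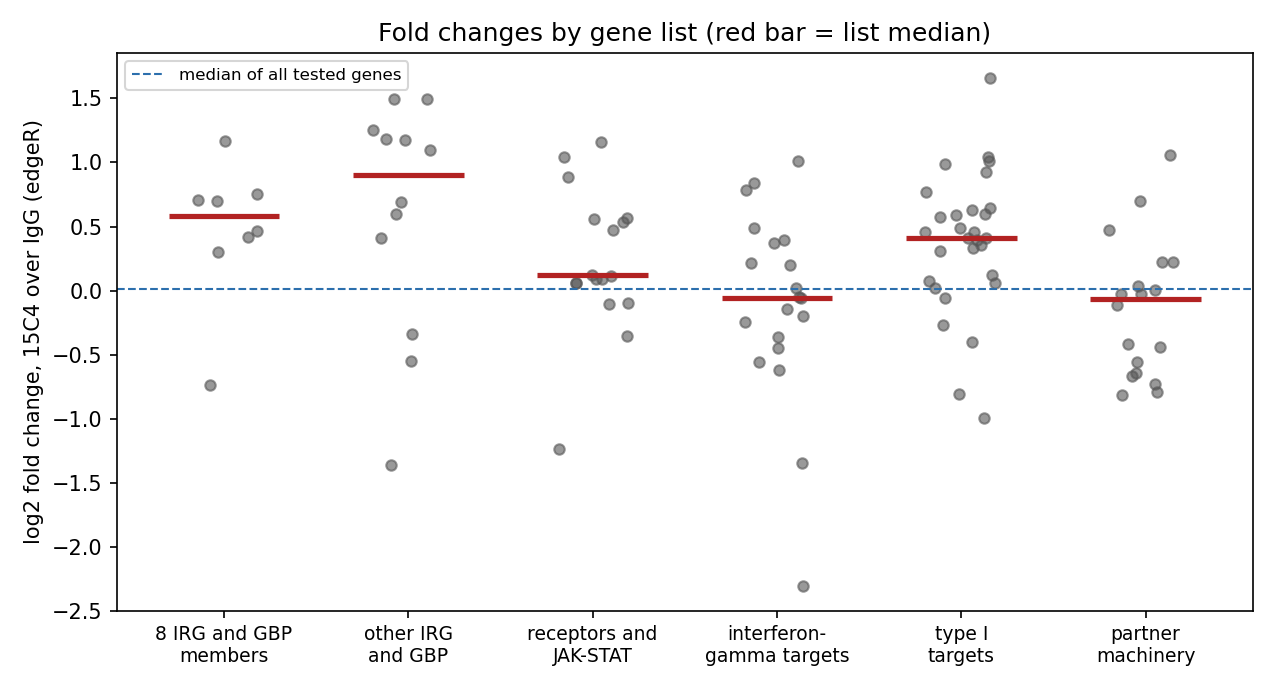
The edgeR log2 fold change of 15C4 over IgG for each tested gene (grey points) of the 8 members and of 5 pathway lists, with the list median in red and the median of all tested genes as a dashed line. The medians are 0.58 for the members, 0.90 for their relatives and 0.41 for type I interferon targets, and lie between -0.07 and 0.12 for the other lists.

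The genes whose pattern over the 6 libraries was most like that of the members were sought among 4101 other tested genes with a mean of at least 50 CPM. Likeness was the root mean square difference between a gene's centred log2(CPM + 1) profile and the mean profile of the 8 members. Ifi203, an interferon-inducible gene of the PYHIN family, was closest, with a difference of 0.08, against a median of 0.84 for all these genes. It was at 602, 659 and 277 CPM in 15C4 and at 379, 611 and 230 CPM in IgG, so it was high in the same 3 libraries. Tnfrsf1a, the main TNF receptor, followed at 0.13, then Akap8 at 0.18, Jmy at 0.18 and Hspg2, which encodes the basement membrane protein perlecan, at 0.20. Among the members themselves, Gbp7 (0.27) and Gbp3 (0.33) were nearest to the mean profile and Irgm2 (0.81) and Gbp2 (0.80) farthest from it. These are descriptions of 6 libraries and share their depth and cell make-up.

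In the authors' deposited table, whose fold changes are IgG over 15C4, the members had log2 values between -1.22 for Igtp and 0.70 for Gbp2. The deposited adjusted p was lowest for Igtp, at 0.503, and Gbp7, at 0.505, and 0.924 for Iigp1. The authors' deposited table also gives a fold change for 4833 genes that had 0 counts in all 6 libraries, so its values did not come from these 6 count files alone, and which libraries it rests on is not known here.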

How the data were processed

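The authors deposited a raw count per gene symbol for each of the 6 libraries, in whole numbers. The tools named in the submitters' processing notes are STAR 2.5b, featureCounts, fastp and DESeq2, and both mm10 and mm9 are listed without roles. For the annotation, the strand setting and shared reads the entry is the same: not given in the sources used here. Per the file headers, the authors' deposited table holds a log2 fold change, a p-value and an adjusted p-value, used here only where named. The fit behind that table is not described in the sources used here and drew on more than these count files.

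CPM are counts over the library total. Tests used edgeR 4.0.16 in R 4.3.3 (quasi-likelihood, TMM, filterByExpr with a minimum count of 10 and total of 15, treatment as the only term) across all 11144 tested genes, with Benjamini-Hochberg adjustment at 0.05. The SE is the absolute log2 fold change over the square root of F. DESeq2 1.42.0 and limma 3.58.1 were alternatives, and the code was tested on simulated data. The members and gene lists were chosen with earlier results of these data known. Named are all members, the tested list genes of smallest p or highest mean CPM (3 each), some of the marker genes of highest mean CPM or at 0, and the 5 genes of most similar profile. A gene that this rule names in the receptor list is not reported here. Coordinates are from GENCODE M21 and promoter sequences from RefSeq. Reads were PCR-amplified without molecular identifiers stated, so they need not be independent molecules.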

Additional observations from a re-analysis of the deposited data

How the results depend on the processing

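The count of 0 members was the same in all 14 alternatives. Of all genes, 0 passed with all libraries in edgeR, 26 with DESeq2 and 1 without a filter, and of the pathway genes 0 and, with DESeq2, 1 (Ifih1). The log2 fold change of Irgm2 was -0.03 and that of Iigp1 -0.43 without 15C4 2, and that of Gbp3 was -0.01 without IgG 3. With 1 library left out in turn the values ran from -0.03 to 1.26 for Irgm2, from -0.43 to 1.82 for Iigp1 and from -0.01 to 0.89 for Gbp3. The cause was not tested. Igtp, Irgm1, Gbp2, Gbp6 and Gbp7 kept their direction in all 14 alternatives, Igtp between 0.81 and 1.83 and Gbp2 between -1.16 and -0.26. The members' median of 0.58 ran from 0.31 (without 15C4 2) to 1.02 (without IgG 2) with 1 library left out, and was 0.59 with DESeq2 size factors and 0.49 with library totals alone. The labels do not say whether the replicate numbers in the titles pair the libraries. Over the tested genes, the deviations of same-numbered libraries from their group means correlated at -0.04, 0.06 and 0.10. Those of differently numbered libraries correlated at -0.10 to 0.07. Such weak correlations over so few libraries cannot decide whether there was a pairing. With the replicate block, 0 genes and 0 members passed, with 207 genes at an unadjusted p under 0.05 in place of 288. The fits with 1 library left out called 0 genes and 0 members. Each member had at least 138 counts in every library.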

Other observations

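A GAS core that ends 0 to 5 bases before a forward ISRE core, a spacing noticed in Igtp and Irgm2 after their sequences were read, was found in 6 of the 32851 RefSeq promoter windows. The genes were Igtp, Irgm2, Tgtp1, Tgtp2, Gm12185 and Bst2, with 3 bases between the cores in Bst2 and 2 in the other genes. The first 5 belong to the IRG family and lie on chromosome 11, in 2 clusters. Bst2 encodes tetherin, an interferon-induced membrane protein that holds budding viruses at the cell surface. It was at 245, 287 and 269 CPM in 15C4 and at 174.5, 240 and 209 CPM in IgG, and its log2 fold change of 0.46 (SE 0.31) did not pass. Its groups did not overlap, as for 2 of the 29 tested type I interferon targets. Of all tested genes, 9.52% did not overlap in either direction and 2.88% were higher in 15C4 without overlap. Gm12185 was at 14.4, 4.45 and 0 CPM in 15C4 and at 12.4, 35.9 and 0.600 CPM in IgG.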
